A study of Mus musculus with 35 samples.

Results

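The comparison described here sets the kidneys of 7 diabetic mice against those of 4 control mice, all 4 months old. These 11 arrays were all of that age among the 35 of the series, which also measured 6 diabetic and 6 control arrays at 2 months and the same numbers at 8 months. Arrays were assigned by their titles, diabetic 1 to 7 and control 1 to 4. The comparison was chosen with earlier results known, and controls 3 and 4 are set against controls 1 and 2 because their clock genes had been seen to differ. Every group was labelled FVB/NJ. The diabetic mice belong to the OVE26 line, in which an insulin promoter drives calmodulin in the beta cells of the pancreas, so that insulin runs short from early life and the kidney itself carries no targeted change. The labels give neither the genotype of the controls nor sex, blood glucose or the hour of collection. Total RNA of whole kidney was extracted with TRIzol, and 5 ug of it were labelled with biotin and read on Affymetrix arrays. The labels do not say that each array was a separate animal, so the p-values measure the spread between arrays, which may in part be technical. Xist, the transcript of the inactive X chromosome, lay between 10.48 and 10.98 on the 11 arrays.

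A kidney that filters blood rich in glucose reabsorbs it in the proximal tubule, and the same cells burn fatty acids, make glucose and detoxify. Further along, the thick ascending limb reclaims salt, calcium and magnesium, and the intercalated cells of the collecting duct set the acid balance. Many kidney genes also follow the time of day: the activators CLOCK and BMAL1 (gene Arntl) drive repressors such as Per1, Per2 and Ciart and the output factor Dbp, whose peak comes at the opposite time of day from that of Arntl.

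The values are log2 signals, in which a difference of 1 is a doubling. A gene is represented by its brightest probe set, 13004 genes passed a floor on dim signals, and group means were fitted with limma over all 35 arrays. Differences are diabetic minus control with the standard error of that fit, and a gene is called when its p falls under 0.05 after Benjamini-Hochberg adjustment for 13004 genes. The 11 arrays were alike in depth of signal, with means from 6.02 to 6.04, log2 actin 3'/5' ratios from 0.49 to 0.72 and correlations between arrays from 0.993 to 0.997. Whole-kidney markers were bright: Umod of the thick ascending limb lay between 13.66 and 14.04, and Slc5a2 of the proximal tubule between 12.04 and 12.31. Controls 3 and 4 stood apart on principal component 1, which held 29.4% of the variance, at -18.0 and -18.6. Controls 1 and 2 scored -2.16 and -6.24 there, and the diabetic arrays -0.60 to 13.1. On the second component (20.2%) diabetic 3, 4 and 7 stood apart, at -12.6 to -14.1, where the other 8 arrays scored from 0.35 to 12.5.

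In the diabetic kidneys 54 genes were called higher (0.415% of those tested) and 72 lower (0.554%), 126 in all (0.969%). Of these, 18 differed at least 2-fold, 13 higher and 5 lower. The arrays of the groups did not overlap for 625 genes (4.81%), and 101 of the called genes were among them. The split between the directions moved with the scaling: 42.9% of the calls were higher in the values as deposited, 55% after quantile normalization over all arrays (71 higher, 58 lower), 53.6% when each age was normalized on its own and 54.5% with each array scaled to a common mean and spread. The count rested on controls 3 and 4. Without both of them 5 genes were called, Anxa13, Fasn, Ndrg2, Sec16b and Ucp1. In that fit 111 of the 126 had an unadjusted p under 0.05 and all 126 kept their sign. The 126 had been chosen partly on the arrays that remained, which favours both counts, so they are no separate support. The number called was 36 without control 3, 29 without control 4, 78 without diabetic 5 and 194 without diabetic 3, 4 and 7, and 22 genes were called without any 1 of the 11 arrays.

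Genes for stress signals and inflammation were among the largest increases. Cxcl10, a chemokine that draws activated T cells, read 6.07, 5.88, 5.97 and 5.64 in controls 1 to 4, and its lowest, median and highest diabetic signals were 6.84, 7.18 and 7.98. Every diabetic array lay above every control, the difference was 1.35 ± 0.21, or 2.55-fold (limma adjusted p = 0.000864), and it was 1.26 against controls 1 and 2 and 1.44 against controls 3 and 4. The promoter of Cxcl10 is printed because the gene is induced by interferons through a known element of this region. It is the 250 bases before the annotated start of the gene in RefSeq (GRCm38.p6, minus strand, chr5:92348890-92349139), a reference from another strain than FVB/NJ. Capitals mark a match to the interferon-stimulated response element, searched on both strands as GAAA, any 2 bases, then GAAA, 213 bases before the start.
Cxcl10: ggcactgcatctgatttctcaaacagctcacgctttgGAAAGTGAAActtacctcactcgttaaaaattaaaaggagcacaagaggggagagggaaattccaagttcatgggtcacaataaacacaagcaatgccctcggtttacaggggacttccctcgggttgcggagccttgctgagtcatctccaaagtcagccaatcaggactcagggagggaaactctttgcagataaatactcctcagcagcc
Such a match stands in 2.98% of the 32851 mouse promoter windows of that length, so it describes the sequence and shows no binding. Mif, a cytokine gene expressed at a high level in tubules, had control signals of 12.39, 12.47, 12.38 and 12.26 and diabetic signals of 12.68, 12.79 and 12.85 (lowest, median, highest), again without overlap, a difference of 0.40 ± 0.09. Of 20 tested chemokine and cytokine genes these were the 2 called, and the median of the list was 0.15, where all genes had 0.01. Ccl5 stood at 0.52 ± 0.25 (adjusted p = 0.429).

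Lyz1, a lysozyme gene, read 8.28, 8.73, 8.66 and 8.68 in the controls and 9.13, 9.44 and 10.39 at the lowest, median and highest diabetic array. It rose by 1.00 ± 0.23 (adjusted p = 0.0212), with control 1 lowest of all. A second Lyz1 probe set above the floor stood at 0.89 without a call (limma adjusted p = 0.136). Probe sets of the near-identical Lyz2 can share its signal, which was not tested. Lyz2 itself stood at 0.86 ± 0.25 and was not called (limma adjusted p = 0.0956). Lyz1 was the 1 gene called of 26 tested on the macrophage and dendritic cell list, and the median of that list was 0.05. In RNA of whole kidney, more or fewer cells of a type and more or less RNA per cell cannot be told apart. The mean signal of the macrophage markers ran from 6.78 to 7.27 over the diabetic arrays and read 6.60, 6.82, 6.81 and 6.77 in controls 1 to 4, so the groups overlapped. Of the 5 tested neutrophil genes and the 13 of lymphocytes and plasma cells limma called 0, with 1 of the 18 at an unadjusted p under 0.05 and medians of 0.10 and 0.08, and Csf3r, the receptor for granulocyte growth factor, stood at 0.16 ± 0.11. The interferon response list had a median of -0.01, and the 1 of its 38 genes called was lower: Gbp3, a guanylate-binding GTPase, fell by 0.88 (adjusted p = 0.0377).

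Immediate early genes, which answer growth factors and stress within minutes, had 3 of 28 called, all higher, and a median of 0.40. Nr4a1, an orphan nuclear receptor, read 7.87, 7.73, 7.16 and 7.75 in the controls and 8.44 and 8.86 at the lowest and median diabetic array. It rose by 1.41 ± 0.32, or 2.66-fold (adjusted p = 0.0185). Rcan1, an inhibitor of calcineurin, read 9.77, 9.63, 9.59 and 9.54 against 10.23, 10.85 and 11.37 and rose by 1.15 ± 0.19 (adjusted p = 0.00185). Ier3, a regulator of cell survival, read 9.99, 9.97, 9.52 and 9.70 against 10.58, 10.80 and 11.17 and rose by 1.03 ± 0.19 (adjusted p = 0.00351). No diabetic array of these 3 genes overlapped a control, and the smallest of their differences against either pair of controls was 0.85, for Ier3 against controls 1 and 2. The list as a whole was less even, with a median of 0.14 against controls 1 and 2 and 0.57 against controls 3 and 4. Of the other injury and stress lists, 1 of 29 tubular injury genes was called, the keratin gene Krt18, which read 7.94, 8.01, 7.80 and 7.94 against 8.14, 8.59 and 8.70 and rose by 0.60 ± 0.14 (adjusted p = 0.0204). The median of that list was 0.25. Ccng1, a cyclin induced by p53, rose by 0.41 ± 0.09, 1 of 14 targets of p53, whose median was 0.22.

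**Figure D1:**
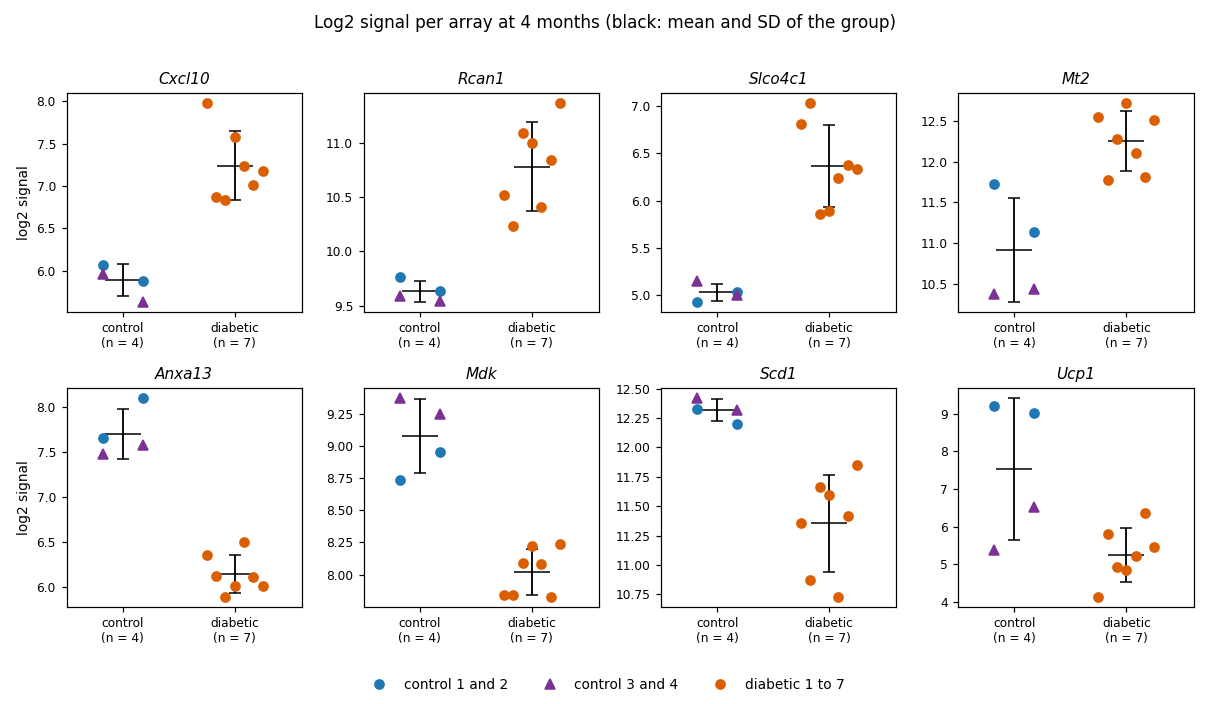
Log2 signal of 8 called genes on each 4-month array. Circles are diabetic 1 to 7 (orange) and controls 1 and 2 (blue), triangles are controls 3 and 4, and bars are the group mean and SD. In all but Ucp1 every diabetic array lies on one side of all 4 controls, while in Ucp1 controls 3 and 4 lie far below controls 1 and 2.

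The largest increases were in enzymes of varied kinds. Cyp4a12a, a cytochrome P450 that hydroxylates fatty acids and responds to androgens, read 8.51, 8.19, 7.10 and 7.31 in the controls and 8.98, 9.77 and 10.44 at the lowest, median and highest diabetic array, a rise of 1.85 ± 0.36, or 3.61-fold (adjusted p = 0.00544). Mtarc1, a molybdenum enzyme of the mitochondrial surface, rose by 1.96 ± 0.45 (adjusted p = 0.021), from 7.77, 7.16, 5.22 and 5.44 to a diabetic range of 7.19 to 9.53. Its difference was 0.89 against controls 1 and 2 and 3.02 against controls 3 and 4, and a second probe set of the gene stood at 0.39 without a call. Control 3 lay below the floor of 5.273 for dim signals and control 4 little above it, so the size of this rise is uncertain. The aldehyde dehydrogenases Aldh1a7 and Aldh1a1 rose by 1.55 ± 0.31 and 1.06 ± 0.27. They are close relatives whose probe sets may share signal, and Aldh1a1 overlapped between the groups. Reep6, which shapes the endoplasmic reticulum, rose by 1.29 ± 0.26, from 9.48, 9.59, 8.52 and 8.91 to 9.81, 10.48 and 10.85. Ephx1, the microsomal epoxide hydrolase, read 9.86, 9.69, 9.50 and 9.44 against 10.17, 10.29 and 10.45 and rose by 0.68 ± 0.11 (adjusted p = 0.00184). Its groups did not overlap, and it was called without any 1 of the 11 arrays.

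Within the list of 38 cytochrome P450 and detoxification genes 4 were called higher, Aldh1a7, Reep6, Akr1c12 (0.61 ± 0.14) and Aldh1a1, and 1 lower, the aldo-keto reductase Akr1c20. The median was -0.02, where all genes had 0.01. Akr1c20 read 7.48, 7.68, 8.01 and 7.95 against 5.99, 6.88 and 7.11 and fell by 1.00 (adjusted p = 0.00579), opposite in direction to its relative Akr1c12. Levels against controls 3 and 4 were further from the diabetic ones in all these genes: controls 3 and 4 had 6.17 and 6.48 for Aldh1a7, where controls 1 and 2 had 7.98 and 7.42.

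The metallothioneins Mt1 and Mt2, small proteins that bind zinc and copper, were both called higher. Mt2 read 11.72, 11.14, 10.37 and 10.43 in the controls and 11.78, 12.28 and 12.72 at the lowest, median and highest diabetic array, a rise of 1.33 ± 0.32, or 2.52-fold (adjusted p = 0.031). Mt1 read 12.67, 12.05, 11.70 and 11.68 against 12.40, 12.91 and 13.22, a rise of 0.84 ± 0.21 (adjusted p = 0.0462), and diabetic 2 lay below control 1. These calls were not firm: of the 11 fits that leave out 1 array, Mt2 was called in 4 and Mt1 in 2, and with the clock covariate the adjusted p was 0.25 and 0.268. Both genes answer metals and glucocorticoids, and both were lower in controls 3 and 4 than in controls 1 and 2: the difference of Mt2 was 0.82 against the first pair and 1.84 against the second, and that of Mt1 0.51 and 1.17. Their promoters are printed because the genes are neighbours that were both called higher and share a known metal response element. These are the 250 bases before the start in RefSeq (GRCm38.p6, both on the plus strand, chr8:94178839-94179088 for Mt1 and chr8:94172368-94172617 for Mt2), with matches to TGCACNC or TGCGCNC on either strand in capitals. The windows end at the annotated start, and elements beyond it are not covered.
Mt1: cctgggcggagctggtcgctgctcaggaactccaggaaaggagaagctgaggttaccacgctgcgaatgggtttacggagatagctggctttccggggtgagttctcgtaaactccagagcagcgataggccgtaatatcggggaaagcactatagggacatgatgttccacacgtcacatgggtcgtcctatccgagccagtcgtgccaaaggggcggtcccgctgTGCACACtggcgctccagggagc
Mt2: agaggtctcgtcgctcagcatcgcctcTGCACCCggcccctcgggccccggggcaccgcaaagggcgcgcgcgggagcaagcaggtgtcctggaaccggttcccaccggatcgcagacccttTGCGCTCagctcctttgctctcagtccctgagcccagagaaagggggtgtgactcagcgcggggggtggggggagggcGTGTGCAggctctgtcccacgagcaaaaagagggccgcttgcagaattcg
Mt1 has 1 match, 23 bases before the start, and Mt2 has 3, at 223, 128 and 50 bases. The motif is common, in 21.4% of all windows of that length, and it also stands once before the zinc exporter gene Slc30a1, 43 bases from its start. The antioxidant response element, searched as TGACNNNGC, had 1 match in Mt2 and 0 in Mt1, Ephx1 and Nqo1, against 10.2% of windows, and that match in Mt2 lay at 79 bases, apart from the metal elements. Among 32 metallothionein, antioxidant and NRF2 target genes Mt1, Mt2 and Ephx1 were the 3 called, all higher, and the median was 0.12. Hmox1, the inducible heme oxygenase, stood at 1.41 ± 0.50 without overlap but was not called (adjusted p = 0.208).

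Transport and tubular enzymes rose in single genes. Slco4c1, an organic anion transporter of the basolateral membrane, lay in every control below the floor of 5.273 that a gene's mean had to reach, at 4.93, 5.04, 5.15 and 5.00, and read 5.86, 6.34 and 7.03 at the lowest, median and highest diabetic array. It was called higher, but it passed that floor through the arrays where it is high, so no size is read from controls this dim. Slc5a10, a sodium-coupled sugar transporter of the proximal tubule, rose by 0.66 ± 0.12 (adjusted p = 0.00351), the 1 of 19 glucose transport and sensing genes called (list median 0.07). Bbox1, the last enzyme of carnitine synthesis, rose by 1.24 ± 0.27, and its second probe set by 1.51 (adjusted p = 0.00332). Stc1, a secreted regulator of calcium and phosphate, rose by 0.89 ± 0.19, but by 0.44 against controls 1 and 2 and 1.33 against controls 3 and 4, and its second, dimmer probe set stood at 0.07 without a call. Egln3, an oxygen-sensing hydroxylase induced in hypoxia, rose by 0.63 ± 0.15, the 1 of 21 hypoxia targets called (list median 0.09). Bmp7, a growth factor of tubular epithelium, rose by 0.38 ± 0.09, and Ctsa, a lysosomal protease, by 0.31 ± 0.07. Other probe sets above the floor stood at 0.29 and 0.11 for Bmp7 and at -0.04 for Ctsa, none of them called. Of the 11 fits that leave out 1 array, Bmp7 was called in 5 and Ctsa in 7. Mab21l3 rose by 1.04 ± 0.24, with diabetic 4 and 7 within the control range.

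Enzymes that build fatty acids were among the falls. Scd1, the desaturase that makes oleate, read 12.33, 12.20, 12.42 and 12.32 in the controls and 10.73, 11.42 and 11.85 at the lowest, median and highest diabetic array, without overlap, a fall of 0.96 on the log2 scale ± 0.19 (adjusted p = 0.00544). Fasn, the fatty acid synthase, read 9.46, 9.68, 8.83 and 8.63 against 7.81, 8.00 and 8.73 and differed by -0.99 ± 0.23 (adjusted p = 0.0203). For Fasn it was controls 1 and 2 that stood further from the diabetic arrays, with -1.41 against them and -0.57 against controls 3 and 4. Acaca, the acetyl-CoA carboxylase that commits carbon to fat, read 7.85, 8.09, 7.69 and 7.66 against 6.91, 7.14 and 7.61, a difference of -0.65 ± 0.13, called and without overlap. These 3 were the called genes among 22 of fatty acid synthesis, 17 of which were below 0. The median of the list was -0.21, with -0.28 against controls 1 and 2 and -0.22 against controls 3 and 4. Fat tissue also makes these enzymes. The mean signal of 7 fat markers was 7.79, 7.60, 6.44 and 7.16 in controls 1 to 4 and 5.70 to 7.09 in diabetic kidneys. Fasn shared this order of the control pairs and Scd1 did not. That mean includes Ucp1, which itself was far lower in controls 3 and 4. It was not taken without Ucp1, so the order is not read as that of fat markers in general. The part of attached fat in these enzymes was not tested. The sterol regulatory element, searched as TCACNCCAC, had no match in the 250 bases before Fasn, Acaca and Srebf1, and it stands in 1.05% of windows. Lpl, the lipase that releases fatty acids from lipoproteins, read 12.80, 12.77, 12.97 and 13.21 against 11.73, 12.05 and 12.45 and differed by -0.86 ± 0.16, and its second probe set by -1.26 (both called). Cholesterol synthesis had 0 of 17 genes called by limma and 3 at an unadjusted p under 0.05, with 4 of them above 0, a median of -0.10, and -0.44 ± 0.20 for Idi1. At the other end, fatty acid oxidation and targets of PPAR-alpha had 1 of 29 called, Cyp4a12a, with 25 above 0. Its median was 0.20, but 0.00 against controls 1 and 2 and 0.33 against controls 3 and 4.

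Genes of varied function made up the other large falls. Anxa13, an annexin of epithelial cells, read 7.66, 8.10, 7.47 and 7.58 in the controls and 5.89, 6.11 and 6.50 at the lowest, median and highest diabetic array. The groups lay well apart, the difference was -1.56 ± 0.25, or 2.95-fold (adjusted p = 0.000864), and it was called also without controls 3 and 4 (adjusted p = 0.0264). Mdk, the heparin-binding growth factor midkine, read 8.74, 8.95, 9.38 and 9.25 against 7.83, 8.08 and 8.24, a difference of -1.06 ± 0.17 (adjusted p = 0.000864). Slc9a8, a sodium-proton exchanger of inner membranes, read 9.32, 9.05, 9.81 and 9.41 against 7.93, 8.17 and 8.79, a difference of -1.06 ± 0.19 (adjusted p = 0.00351), and its other probe sets above the floor stood at -0.85 and -0.17, neither called. Spidr, a scaffold protein of DNA repair, differed by -1.37 ± 0.30, reading 8.41 to 9.09 in diabetic kidneys against 9.60 to 10.30 in controls. Egfl6 (-0.98 ± 0.21) and C1qtnf3 (-0.88 ± 0.21), which encode secreted proteins, and Esm1 (-0.85 ± 0.19), a proteoglycan of endothelium, were higher in controls 3 and 4 than in controls 1 and 2. Esm1 stood at -0.41 against the first pair and -1.30 against the second, the 1 of 24 endothelial genes called (list median -0.06). Abcb1b, a drug efflux pump, differed by -0.82 ± 0.18, and Slc6a15, an amino acid transporter, by -0.77 ± 0.18, of which -0.34 remained against controls 1 and 2. Among 45 proximal tubule transport genes Slco4c1 was called higher and Slc9a8 and the peptide transporter Slc15a2 lower. Slc15a2 read 11.90, 11.74, 11.92 and 12.07 against 11.10, 11.34 and 11.42, a difference of -0.62 ± 0.09 (adjusted p = 0.000864), and of its other probe sets 1 was called too, at -0.67, and 1 stood at -0.29 without a call. The median of that list was -0.04. Of 32 genes of amino acid catabolism Kmo of the kynurenine pathway (-0.57 ± 0.12) and Ivd of leucine breakdown (-0.39 ± 0.08) were called, both lower and both without overlap, with a list median of -0.13.

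Lists of the distal nephron held 1 to 3 calls each. Over all genes tested 0.969% were called, 4.81% did not overlap between the groups, and 6955 of 13004 were above 0. For the 16 genes of the thick ascending limb the median was -0.26, with 3 above 0 and 7 without overlap, and 1 was called. That was Casr, the calcium-sensing receptor, which read 8.02, 7.92, 8.22 and 8.41 against 7.50, 7.66 and 7.88 and differed by -0.45 ± 0.12 (adjusted p = 0.0498). Egf, made by this segment, read 13.45, 13.43, 13.47 and 13.54 against 13.00, 13.08 and 13.20, without overlap but not called (-0.36 ± 0.11, adjusted p = 0.101), and Umod stood at -0.16 ± 0.06. The 14 distal convoluted and connecting tubule genes had a median of -0.15, 1 above 0, and 1 called, the potassium channel gene Kcnj10 (-0.41 ± 0.09). The 21 intercalated cell and proton pump genes had a median of -0.28, 3 above 0 and 3 called. These were the chloride-bicarbonate exchanger Slc26a4, at 9.94, 10.04, 9.97 and 10.11 against 9.25, 9.53 and 9.68 (-0.51 ± 0.11), the receptor kinase Kit (-0.50 ± 0.09) and the vesicular channel Aqp6 (-0.35 ± 0.08). The other probe sets of Aqp6 above the floor stood at 0.00, -0.27 and -0.13, none of them called. The medians of these 3 segments were below 0 against either control pair, at -0.22 and -0.28 for the thick ascending limb, -0.13 and -0.21 for the distal tubule, and -0.21 and -0.28 for intercalated cells (controls 1 and 2 first). Principal cell genes had a median of 0.01 and 1 of 17 called, the water channel Aqp4, which read 10.48, 10.27, 10.35 and 10.81 against 9.57, 9.75 and 9.90 and fell by 0.74 (adjusted p = 0.0303). Among 22 podocyte genes Col4a4, a collagen chain of the glomerular basement membrane, fell without overlap (11.02, 10.97, 11.17 and 11.38 against 10.38, 10.59 and 10.77, -0.54 ± 0.10), and both of its other probe sets were called lower as well. Thsd7a, a podocyte surface protein, was called lower, with every diabetic array below the floor, the slit diaphragm gene Nphs1 stood at -0.14 ± 0.14, and the list median was -0.10. Some calls of this paragraph were not firm. Of the 11 fits that leave out 1 array, Casr was called in 3, Aqp4 in 4, Aqp6 in 6 and Thsd7a in 1. Kcnj10 was called in 8 of them, Slc26a4 in 9, and Kit and Col4a4 in 10 each.

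The clock genes, by which controls 3 and 4 had been singled out, are given as a description of that choice. Arntl read 6.15, 6.14, 7.84 and 8.17 in controls 1 to 4 and lay between 5.54 and 6.21 in the diabetic kidneys. Nfil3, a repressor in phase with it, read 6.26, 6.15, 7.17 and 7.18, with diabetic arrays from 5.37 to 6.43. Dbp ran the other way, at 10.38, 10.63, 8.75 and 8.02 in the controls and 10.24 to 11.29 in diabetic kidneys. Of 12 genes of the negative limb and the outputs, 9 had both controls 3 and 4 below all diabetic arrays, and of 5 of the positive limb 3 had both above them, while controls 1 and 2 were in no clock gene both outside that range on one side. Nr1d1 (7.57 in control 3, diabetic 7.40 to 8.52), Cry1 and Rora did not separate in this way. Ciart, a repressor of the clock, read 7.29, 7.35, 5.85 and 5.90 with a diabetic range of 6.90 to 8.11, and Per2 read 8.01, 7.99, 7.22 and 6.38 with 7.23 to 8.76. The promoter of Ciart is shown because the gene is a direct target of CLOCK and BMAL1, and it holds the most E-boxes of the clock promoters searched (RefSeq, GRCm38.p6, minus strand, chr3:95882229-95882478, 250 bases before the start, CACGTG in capitals).
Ciart: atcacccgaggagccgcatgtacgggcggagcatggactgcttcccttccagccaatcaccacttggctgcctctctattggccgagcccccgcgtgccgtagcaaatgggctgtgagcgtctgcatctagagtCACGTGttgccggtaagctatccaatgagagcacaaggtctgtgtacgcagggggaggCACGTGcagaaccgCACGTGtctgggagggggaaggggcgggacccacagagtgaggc
Its 3 E-boxes lie 116, 58 and 44 bases before the start, Per1 has 1 in one of its 2 windows, Tef has 1 in each of 2, and Dbp and Nr1d1 have 0, against 6.02% of all windows. The ROR element, searched as TAGGTCA or TGGGTCA, had 1 match before Nfil3 and 0 before Arntl, Clock and Npas2, against 5.38%. The CRE (TGACGTCA, 1.55% of windows) had 0 matches before Nr4a1, Fos, Pck1 and Per1, and the D-box (TTATGTAA or TTACGTAA, 0.931%) 0 before Per1 and Nr1d1. These counts cover the exact forms given. Shorter or variant forms were not searched, so a count of 0 does not show that an element is absent.

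Of the 17 tested clock genes limma called 0 with all 4 controls, and 6 had an unadjusted p under 0.05. Arntl stood at -1.22 ± 0.41 (adjusted p = 0.18), -0.28 against controls 1 and 2 and -2.15 against controls 3 and 4. Dbp stood at 1.37 ± 0.62 (adjusted p = 0.387), 0.31 and 2.43. Over the 12 genes of the negative limb and the outputs, all above 0, the median was 0.42, with 0.02 against controls 1 and 2 and 0.91 against controls 3 and 4. The 5 of the positive limb, all below 0, had a median of -0.36, with -0.27 and -0.52. By unadjusted p the whole comparison held 1478 genes under 0.05, and without controls 3 and 4 it held 603. Targets of glucocorticoids and mineralocorticoids, hormones that also follow the day, split in the same arrays: their median was 0.21, but -0.20 against controls 1 and 2 and 0.83 against controls 3 and 4. Of these 19 genes the 2 called were Mt1 and Mt2. Of 13 lymphocyte and plasma cell genes 2, Jchain and Igha, had both controls 3 and 4 above all diabetic arrays, and 2, Ccl5 and Mzb1, had both below. The share of all genes with both outside the diabetic range was not counted, here or for the clock lists. Nothing is therefore read about lymphocyte genes as a set. Jchain read 7.36, 7.61, 9.44 and 8.83 in the controls, with 7.37 to 7.91 in diabetic kidneys, and an immunoglobulin kappa variable gene read 5.64, 5.60, 7.62 and 6.42, with 4.73 to 6.24. The part of clock phase, or of any other difference between the control pairs, in the called genes was not tested beyond these values and a fit with a clock score as covariate, which called 97 genes, 57 of them among the 126.

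**Figure D2:**
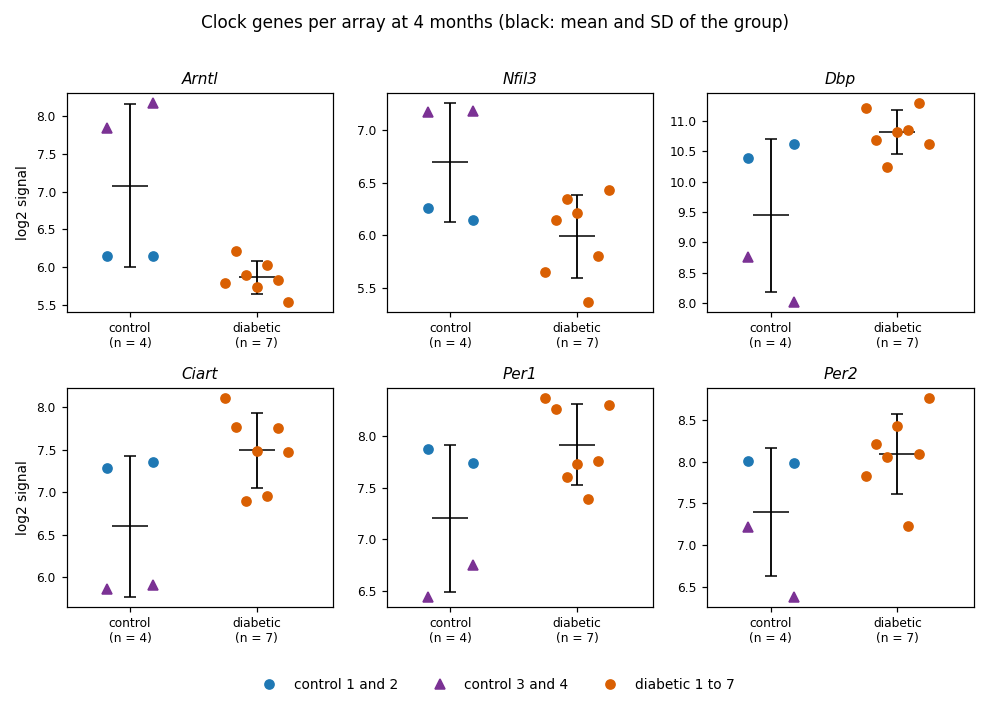
Log2 signal of 6 clock genes on each 4-month array, drawn as in the plot of called genes. Controls 3 and 4 (triangles) lie above the other 9 arrays in Arntl and Nfil3 and below them in Dbp, Ciart, Per1 and Per2, while controls 1 and 2 lie near or within the diabetic range.

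The called genes were then set against each pair of controls. All 126 kept their sign against controls 1 and 2 and against controls 3 and 4, which the calling on their mean favours. The difference was larger against controls 3 and 4 in 102 genes and against controls 1 and 2 in 24, with median sizes of 0.47 for the first pair and 0.66 for the second. Against controls 1 and 2 alone 105 of the 126 did not overlap, and 115 kept at least 0.5 of the size they had against all 4. The other 11 were Stc1, Esm1, Mtarc1, Slc6a15, Avpr1a, Prdm16os, Pwwp3b, Aprt, Rnf145, Cttnbp2 and Spats2l. The calling on these same arrays favours both counts. The share of all genes without overlap against controls 1 and 2 alone was not counted, so the counts do not show that the calls hold without controls 3 and 4. The control pairs differed by 1 or more in 6 called genes, Cyp4a12a, Aldh1a7, Aldh1a1, Mtarc1, Mt2 and Ucp1. Rcan1 differed by 1.08 from controls 1 and 2 and by 1.21 from controls 3 and 4, and Scd1 by -0.91 and -1.01. These genes, Cxcl10 and Anxa13 were called without any 1 of the 11 arrays.

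**Figure D3:**
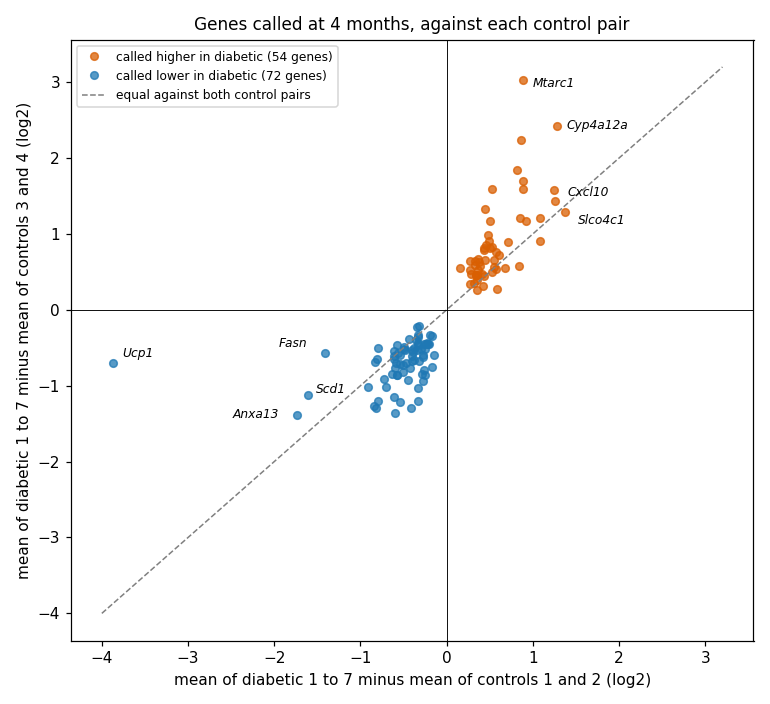
Difference of the mean of the 7 diabetic arrays from the mean of controls 1 and 2 (horizontal) and from that of controls 3 and 4 (vertical) for the 126 called genes, in log2 units. All points lie in the upper right or lower left part of the plot, and 102 of them are further from 0 on the vertical axis.

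Ucp1, the uncoupling protein of brown fat, had the largest difference of all and rested on the other pair. It read 9.21, 9.03, 5.39 and 6.52 in controls 1 to 4 and 4.14, 5.22 and 6.37 at the lowest, median and highest diabetic array. The median diabetic signal lay below the floor of 5.273, so the size of the fall is uncertain. The difference of -2.28 ± 0.50 (adjusted p = 0.0145) was -3.87 against controls 1 and 2 and -0.70 against controls 3 and 4, where the groups overlapped. Other fat markers moved between arrays as well. Adipoq, the adiponectin gene, read 8.60, 8.43, 7.11 and 8.74 in the controls and 6.47, 8.69, 7.82, 8.52, 8.77, 8.52 and 8.86 in diabetic 1 to 7, lowest in diabetic 1 and control 3. Over the 7 fat markers on the array, Ucp1 itself among them, the mean signal was 7.79, 7.60, 6.44 and 7.16 in controls 1 to 4. It ran from 5.70 to 7.09 in diabetic kidneys. The mean was not taken without Ucp1, so it is no separate reading of the other fat markers. Of the 5 tested, Ucp1 was the 1 called, and the median of -0.43 was -0.83 against controls 1 and 2 and -0.03 against controls 3 and 4. The part of attached fat in the signal of Ucp1 was not tested. Markers of adrenal gland, skeletal muscle, pancreas, liver, urothelium and red cells held 0 calls by limma among 23 tested genes, with medians of 0.02, -0.13, 0.11, -0.07, 0.24 and -0.29. Of the 23, 5 had an unadjusted p under 0.05, where over all genes 1478 of 13004 did.

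**Figure D4:**
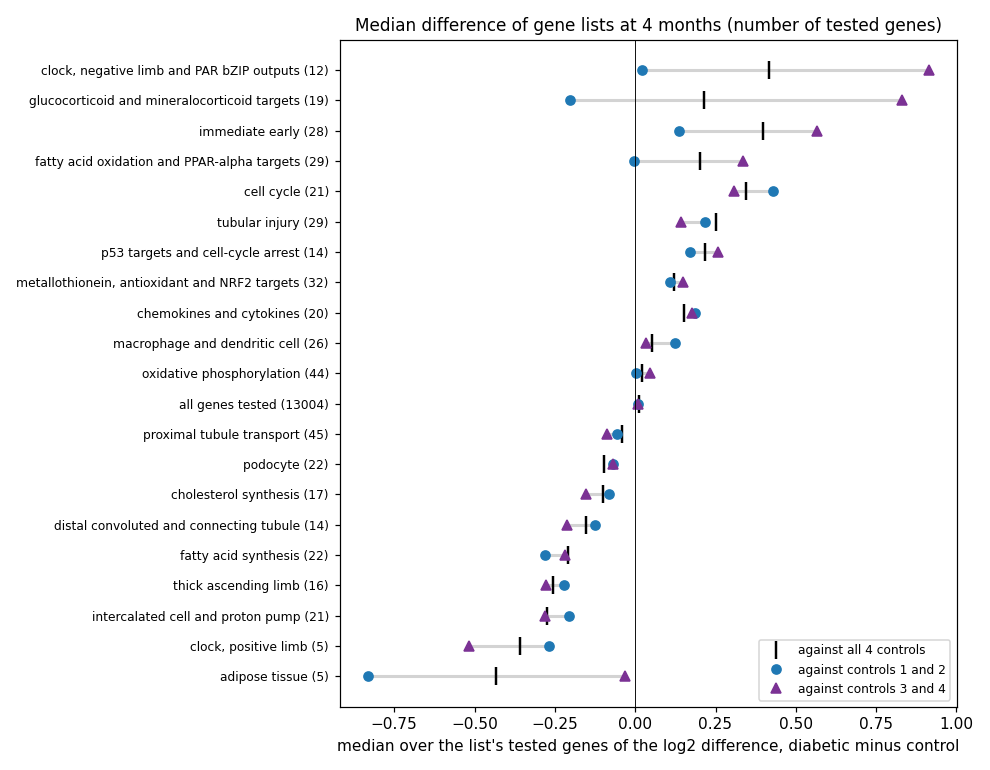
Median difference of the tested genes of 21 sets, diabetic minus control in log2 units, against all 4 controls (bar), controls 1 and 2 (circle) and controls 3 and 4 (triangle), with the number of tested genes in brackets. The clock outputs, glucocorticoid targets and fat markers differ most between the control pairs, and fatty acid synthesis, thick ascending limb and intercalated cell genes lie below 0 against both.

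The remaining lists gave few calls. Cell cycle genes were all above 0, 21 of 21, with a median of 0.34 (0.43 and 0.31 against the 2 control pairs), but limma called 0 of them and 2 had an unadjusted p under 0.05. Over all 13004 genes 6955 were above 0 and 1478 had an unadjusted p under 0.05. Mcm6, a helicase subunit of replication, read 5.30, 5.27, 5.25 and 5.39 in the controls and 5.19 to 7.84 in diabetic kidneys, with diabetic 3 highest. Its controls lay at about the floor of 5.273, so no size is read from them. Fibroblast and matrix genes had a median of 0.11, which was 0.22 against controls 1 and 2 and -0.04 against controls 3 and 4, and the 1 of 33 called was Egfl6, lower. Medians lay between -0.12 and 0.15 for complement, heat shock, the unfolded protein response, gluconeogenesis and ammoniagenesis, oxidative phosphorylation, ribosomal proteins, smooth muscle, and the insulin and growth hormone axis. In these lists limma called 0 of 186 genes and 31 had an unadjusted p under 0.05, a larger share than the 1478 of 13004 over all genes. In the list of 34 BMP, Wnt and growth factor genes (median -0.09) Bmp7 rose and Mdk fell. Sex-biased kidney genes held 1 call among 12, Cyp4a12a, with a median of 0.03. Among 16 tested genes of the renin-angiotensin system and vitamin D (median 0.01) the 1 called was Ctsa, and Agtr1a, the angiotensin receptor, stood at -0.30 ± 0.10.

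Several genes known from diabetic kidney disease were not called by their brightest probe set. Txnip, induced by glucose, stood at 0.30 ± 0.28, the glucose transporters Slc5a2, Slc5a1, Slc2a1 and Slc2a2 at -0.09 ± 0.10, 0.10 ± 0.12, -0.31 ± 0.12 and 0.44 ± 0.16, and the glucose-making enzymes Pck1 and G6pc at -0.02 ± 0.09 and -0.28 ± 0.12. Of the other probe sets of Pck1 a dimmer one was lower (-0.80, adjusted p = 0.0449) and a bright one stood near 0. Vegfa stood at -0.03 ± 0.10, Tgfb1 at 0.24 ± 0.13, Ccn2 at 0.67 ± 0.22, Col1a1 at 0.19 ± 0.36 and Fn1 at 0.06 ± 0.27. Lcn2, an injury marker, read 4.79, 5.58, 4.66 and 4.84 against 5.77, 6.44 and 6.67, without overlap, and stood at 1.43 ± 0.38 (adjusted p = 0.0552). All its controls but control 2 lay below the floor of 5.273, so this size is uncertain. The mean held to that floor takes in the 8-month diabetic arrays, where Lcn2 was high. Havcr1, the injury marker KIM-1, read 5.83, 5.72, 6.13 and 6.45 against 6.14, 6.93 and 7.23 and stood at 0.70 ± 0.30 (adjusted p = 0.362). Some of these turned on the spread that the fit shares with the other ages. In a fit of the 11 arrays alone, which called 358 genes, 108 of them among the 126, Lcn2 (adjusted p = 0.00241), Egf (0.00563), Hmox1 (0.0192), Cdkn1a (0.0229), Slc2a2 (0.0378), G6pc (0.0411) and Tgfb1 (0.0493) passed, and so did Apoa2 (0.000778), Irs1 (0.0168), Slc7a7 (0.0228) and Dnajc3 (0.0483). The same fit lost 18 of the 126, among them Mtarc1 (0.0864) and Ucp1 (0.0814), the largest rise and fall, and Aldh1a1 (0.0817), Bbox1 (0.0814), Mab21l3 (0.0918), Egln3 (0.0699) and Esm1 (0.0617). For Cdkn1a, the inhibitor p21, the signals were 7.84, 7.57, 6.75 and 7.26 against 8.02, 8.04 and 8.39, and the difference was 0.78, with an error of 0.27 in the fit of all ages and 0.158 in that of the 11 arrays. Without controls 3 and 4 that fit of the 4-month arrays called 23 genes, 12 of them among the 126.

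Diabetic 3, 4 and 7 differed from the other diabetic arrays in several of the genes named. For Mtarc1 they read 7.19, 7.33 and 7.51, where diabetic 1, 2, 5 and 6 read 9.53, 8.94, 8.74 and 9.23. For Slc9a8 they read 8.79, 8.72 and 8.76 against 7.99, 8.02, 7.93 and 8.17. Idi1 of sterol synthesis lay at the control level in these 3 arrays (8.75, 8.72 and 8.37, controls 8.36 to 8.63) and at 7.73, 7.69, 7.70 and 7.44 in the others. Without these 3 arrays, a setting added after the data were seen, 194 genes were called, 96 of them among the 126, and 103 of the 194 were higher. Nr4a1, Mt2 and Mt1 then missed the threshold (adjusted p = 0.0508, 0.136 and 0.148).

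The other ages have control arrays of their own, so the sign and size of an effect there are a separate reading of the same genes. The calls there are not separate, because the fit shares 1 spread per gene over all ages. Genes of small spread are thus favoured for a call at every age. Of the 126 genes 111 had the same sign at 2 months, 47 of them called there, and 121 had the same sign at 8 months, 100 of them called, with 0 called in the opposite direction at either age. Over all genes 2.54% were called at 2 months and 16.8% at 8 months. At all 3 ages 45 genes were called in the same direction, among them Anxa13 (2 months -1.31, 4 months -1.56, 8 months -1.66), Mdk (-1.05, -1.06 and -1.12), Slc9a8 (-1.10, -1.06 and -1.30), Lpl (-0.96, -0.86 and -1.01) and Rcan1 (0.71, 1.15 and 1.01). Cxcl10 stood at -0.09 at 2 months and 2.21 at 8 months. Testing the difference of the effects themselves, 0 genes passed for 4 minus 2 months (0%) in limma, with 660 at an unadjusted p under 0.05, and in the fit with array weights 61 passed. For 4 minus 8 months 114 passed (0.877%), of which 94 were called higher at 8 months. At 4 months 64 of the 114 had the same sign with a smaller size and 50 had the opposite sign. Only 4 of the 114 had an effect called at 4 months, so an opposite sign is not read as a reversal.

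Injury and immune genes made up the largest of these differences. For Lcn2 most 4-month controls lay below the floor. The effect on Lcn2 was 1.43 at 4 months and 4.79 at 8 months, a difference of -3.36 (adjusted p = 0.00111). That on Havcr1 was 0.70 and 3.01 (difference -2.31, adjusted p = 0.00337), and that on the immunoglobulin gene Ighm 0.01 and 2.52 (difference -2.50, adjusted p = 2.66e-05). Lyz1, called at both ages, stood at 1.00 and 2.41 (adjusted p of the difference = 0.0173). Ier3 went the other way, with 1.03 at 4 months and -0.13 at 8 months (difference 1.16, adjusted p = 0.0163). Nr4a1 had a like pair of values, 1.41 and -0.02, and missed the threshold (adjusted p = 0.114). Of the 126 called genes 4 differed between these ages, Ier3, Lyz1, Rdh10 and Sertad3. Without controls 3 and 4 the 114 fell to 14, and of the 10 named genes that had passed Lcn2 and Ighm did so.

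**Figure D5:**
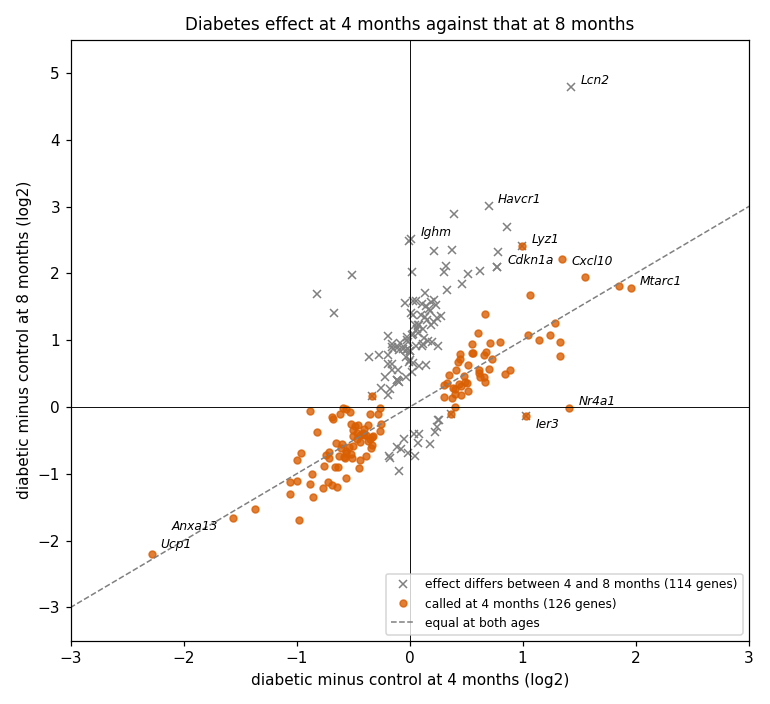
Diabetic minus control at 4 months (horizontal) and at 8 months (vertical), in log2 units, for the 126 genes called at 4 months (circles) and the 114 whose effects differed between these ages (crosses). Lcn2, Havcr1 and Ighm lie far above the dashed line of equal effects, and among the circles Lyz1 and Cxcl10 lie above it and Ier3 and Nr4a1 below.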

How the data were processed

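The authors deposited 1 value per probe set and array, log2 signals as their range shows, for 45101 probe sets. Per the labels' protocols, total RNA of whole kidney was extracted with TRIzol and labelled with biotin for Affymetrix arrays. Background correction, summarization and normalization were not given in the sources used here, and values of different ages may have been scaled apart, so effects were taken within an age.

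Of the probe sets 34945 named 1 gene, 932 several and 9160 none. A gene took its brightest probe set, and the 13004 of 18193 genes whose mean reached 5.273, the 40th percentile over the array, were tested. Group means were fitted to the 35 arrays in limma (version 3.58.1, under R 4.3.3) with 29 residual degrees of freedom, 33.75 after moderation. Tests were two-sided with Benjamini-Hochberg adjustment, and the fit assumes 1 spread per gene in all groups. Lists are given by counts and medians, with no test of a list. Controls 1 and 2, and 3 and 4, were also compared as pairs. The number of arrays limits the precision. The median SD within the group was 0.101 for controls and 0.120 for diabetic arrays. On simulated data of this comparison with 13004 genes, 79% of changes of 0.5 and 98% of changes of 1 (log2) were recovered, with 16 false calls among 193. The simulation drew each gene on each array independently. It therefore lacks differences that many genes share between arrays, such as those between the control pairs, and its shares may not hold for the real arrays.

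Genes named are the 15 largest called differences in each direction (passing over predicted, Rik and clone names), up to 4 called genes of each list (else the 2 with the smallest p), a set of genes known from diabetic kidney and the clock, and the 3 largest called differences between ages each way. Further called genes are named where they make up a short count, and were chosen after their values were seen. The comparison, the lists and this rule were chosen with earlier results of these data known. Promoter windows come from RefSeq (GRCm38.p6), and motifs were counted with Python 3.11.15 in the exact forms stated, so variant forms were missed. Other settings tried were 3 normalizations, 2 filters, the mean of all probe sets, the compared ages alone, array weights, trended and robust moderation, a clock covariate, a replicate block and leaving out arrays.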

Additional observations from a re-analysis of the deposited data

Results flagged for a closer look

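Of 234 groups of 4-month arrays (2 for each of 117 named genes) 8 held an array far from the others of its group, where chance gives about 1 in 20. Lyz1 read 8.28 in control 1, where the other controls read 8.66 to 8.73. Kcnj10 read 8.65 in control 2, against 8.52 to 8.54. Control 4 stood apart in 2 genes, with 10.85 for the cyclin gene Ccnd1 (others 10.41 to 10.46) and 8.05 for Ngef (others 8.28). Among diabetic arrays Akr1c20 read 5.99 in array 1 (others 6.66 to 7.11), Krt18 8.14 in array 4 (others 8.46 to 8.70), Ccng1 10.80 in array 6 (others 11.10 to 11.29) and Lcn2 5.77 in array 6 (others 6.39 to 6.67).

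The effect of diabetes at 4 months differed from that at 8 months in 10 named genes by the limma test of the difference (adjusted p under 0.05), given here as the 4-month minus the 8-month effect with its standard error. It was larger at 4 months for Ier3, by 1.16 ± 0.25. It lay below the 8-month effect for Lcn2 (-3.36 ± 0.51), an immunoglobulin kappa variable gene (-2.51 ± 0.49), Ighm (-2.50 ± 0.31), Havcr1 (-2.31 ± 0.41), Jchain (-2.08 ± 0.50), Cdkn1a (-1.54 ± 0.37) and Lyz1 (-1.42 ± 0.31). Most 4-month controls of Lcn2 lay below the floor. For Ngef (0.87 ± 0.20) and Acvr2b (0.78 ± 0.16) the 8-month effect was below 0, and at 4 months they stood at -0.09 and 0.04. Without controls 3 and 4 of 4 months, Lcn2 and Ighm were the 2 of these 10 still called.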

How the results depend on the processing

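The diabetes effect at 4 months gave 126 genes as deposited. It gave 358 from the 4-month arrays alone, 942 with array weights and 5 without controls 3 and 4, and from 29 to 135 when leaving out 1 array. Settings added after seeing the data gave 23 (4-month arrays alone without controls 3 and 4), 180 (without controls 1 and 2, 91 of them shared) and 194 (without diabetic 3, 4 and 7). The other settings gave 88 to 140. The diabetes effect at 4 months minus that at 2 months gave 0 genes, 2 from these ages alone, 61 with array weights, 1 without controls 3 and 4, 9 without controls 1 and 2, 1 without diabetic 3, 4 and 7, and 0 to 1 when leaving out 1 array. The diabetes effect at 4 months minus that at 8 months gave 114 genes, 222 with scaled arrays, 68 with the filter at the 60th percentile, 458 with array weights, 16 with the clock covariate, 14 without controls 3 and 4, 56 without controls 1 and 2, and 64 to 123 when leaving out 1 array. The causes were not tested, apart from the fewer arrays or genes that some settings leave. No named gene changed direction while called under the settings run. Over the named genes and the settings that do not leave out a single array, a call was lost 200 times and gained 45 times. Of 78 other probe sets of the called genes above the floor, 75 had the same sign, 15 were called the same way and 0 the opposite way.

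The labels give diabetic and control arrays like numbers without stating a pairing. Once group means were subtracted, arrays of 1 number correlated at 0.058, 0.048, 0.177 and 0.077, with 1 of 4 over 0.1, so the numbers were not taken as pairs. With the replicate block 91 genes were called at 4 months, 49 higher and 42 lower, 62 of them among the 126, 0 for 4 minus 2 months and 19 for 4 minus 8 months.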
